A study of Mus musculus with 3 samples.

Results

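Glucagon and 7 other genes that mark islet alpha cells were examined for open chromatin in islets whose beta cells had lost Taf4, one of the TFIID subunits that help RNA polymerase II start transcription. The members were Gcg, Irx1, Irx2, Pou3f4, Ttr, Gc, Slc7a2 and Loxl4, 8 of 22359 protein-coding genes. Every peak overlapping a member's gene body or the 50 kb on each side was taken, which gave 157 of the 362977 peaks listed. The assay was ATAC-seq, in which a transposase inserts sequencing adapters where DNA is accessible, on cells dissociated from isolated mouse islets of Langerhans (strain given as C5LBl6). The WT library was labelled wild type, and the Taf4 KO libraries were taken 1 week and 5 weeks after inactivation. According to the study, Taf4 was deleted in adult mice by tamoxifen through floxed alleles and an Ins1::Cre-ERT2 driver, which is active in beta cells. In its co-staining of islet sections, glucagon-expressing cells kept Taf4. Its lineage tracing, at a later time than either Taf4 KO library, traced most glucagon-expressing cells within the islets to beta cells. Alpha cells at the islet edge were not so traced. The study's controls carried the same driver with Taf4+/+ alleles and also received tamoxifen, which the label of the WT library does not repeat. How many mice gave each library was not stated in the sources used here.

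There was 1 library per group. No difference could therefore be set against the spread between animals, no p-value was computed, and each difference below is one between libraries. The WT list held 60898 peaks and the 1 and 5 week lists held 150354 and 151725. The background read level recovered from them was 3.66, 6.45 and 9.38 reads, so the Taf4 KO libraries had the higher read depth if reads were extended alike in all calls. Of each peak the lists give the fold over local background and the -log10 q, both averaged over the peak by the caller. Since the -log10 q rises with depth, and the median fold was 3.19, 2.40 and 2.24 in the 3 lists, a peak was placed by its rank number in its own list, where 1 is the highest -log10 q, and by its percentile, where 100 is the top. The percentile of a weak peak rises when a list is padded with weaker ones, and the rank number does not. In bulk chromatin, a larger share of cells of a type and more open chromatin per cell cannot be told apart.

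Alpha cells secrete glucagon, which raises blood glucose by acting on the liver, and they sit beside the beta cells that secrete insulin. The glucagon gene is driven by a short proximal promoter, where Pax6, Foxa and E-box binding factors are known to act, together with upstream elements. Iroquois and POU homeodomain factors are part of the alpha cell programme, and several secreted and transport proteins are made at high level in these cells. ATAC-seq peaks mark accessible promoters and candidate distal elements but do not measure transcription.

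The sequences that carry the differing promoter calls are shown first, on the gene's strand and 5′ to 3′. They are the 250 bases upstream of the start of Gcg, Irx1 and Loxl4, whose promoter call differed between libraries, and of Gc, whose rank number moved furthest. For Gcg, the middle 200 bases of an element 1.5 kb upstream and of the strongest distal region found in all lists are added. The Gc sequence and the upstream element were chosen after their values were seen. Capitals mark matches, on either strand, to any of 9 motifs: the TATA box TATAAA, the homeodomain core TAATTA, the forkhead site TGTTTAC, the E-box CAGATG, the Maf recognition core TGCTGA, the cAMP response element TGACGTCA, the Irx site ACATGT, the POU octamer ATGCAAAT and the GC box GGGCGG. Positions and bases are those of mm9.
Gcg promoter, chr2:62321708-62321957: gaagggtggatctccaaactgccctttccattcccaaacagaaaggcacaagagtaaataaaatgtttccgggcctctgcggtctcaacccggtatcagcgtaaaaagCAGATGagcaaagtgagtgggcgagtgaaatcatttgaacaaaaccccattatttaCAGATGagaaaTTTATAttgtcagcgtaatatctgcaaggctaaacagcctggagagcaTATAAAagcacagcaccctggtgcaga
Gcg upstream element, chr2:62323102-62323301: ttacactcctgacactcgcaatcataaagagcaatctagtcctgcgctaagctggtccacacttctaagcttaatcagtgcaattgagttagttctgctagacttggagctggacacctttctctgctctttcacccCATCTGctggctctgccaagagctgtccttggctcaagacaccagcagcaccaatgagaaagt
Gcg downstream region, chr2:62279243-62279442: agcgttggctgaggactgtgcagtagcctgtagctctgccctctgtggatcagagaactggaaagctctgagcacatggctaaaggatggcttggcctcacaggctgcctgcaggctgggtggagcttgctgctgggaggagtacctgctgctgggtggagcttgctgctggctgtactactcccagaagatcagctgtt
Irx1 promoter, chr13:72101172-72101421: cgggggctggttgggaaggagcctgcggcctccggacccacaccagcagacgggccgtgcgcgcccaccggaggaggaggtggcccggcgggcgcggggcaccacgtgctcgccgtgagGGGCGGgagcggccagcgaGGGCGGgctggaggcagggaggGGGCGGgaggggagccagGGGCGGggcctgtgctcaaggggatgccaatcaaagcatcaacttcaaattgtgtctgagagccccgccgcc
Loxl4 promoter, chr19:42687304-42687553: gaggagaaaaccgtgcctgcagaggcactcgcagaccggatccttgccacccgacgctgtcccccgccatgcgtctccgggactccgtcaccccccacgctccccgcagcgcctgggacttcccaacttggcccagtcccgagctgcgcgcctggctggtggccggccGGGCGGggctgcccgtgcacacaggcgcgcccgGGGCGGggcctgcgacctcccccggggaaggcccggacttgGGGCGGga
Gc promoter, chr5:89886791-89887040: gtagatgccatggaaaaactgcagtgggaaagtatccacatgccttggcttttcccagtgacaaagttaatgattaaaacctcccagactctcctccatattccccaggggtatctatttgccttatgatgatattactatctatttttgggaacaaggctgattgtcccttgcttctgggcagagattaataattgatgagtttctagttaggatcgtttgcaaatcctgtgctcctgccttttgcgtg

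The Gcg promoter held TATAAA beginning 27 bases upstream of the start, its reverse complement at 75, and CAGATG at 142 and 86. TATAAA was found in 12.3% of the 250-base promoters of all protein-coding genes and CAGATG in 12.8%. The upstream element held CAGATG, on the opposite strand, 1457 bases upstream, a motif present in 21.6% of the central 200 bases of WT distal peaks. The downstream region held none of the 9. Irx1 had 4 GC boxes and Loxl4 had 3, in a motif carried by 40.1% of promoters, and the Gc promoter held none of the 9 motifs. Among the 8 members, 4 promoters held a GC box, 2 held CAGATG, 1 held TATAAA and none held any of the other motifs within 250 bases. By the observed over expected CpG ratio, with a threshold of 0.6, Gcg, Ttr and Gc had CpG-poor promoters and the other 5 CpG-rich ones. These matches describe the letters in these windows and say nothing on binding.

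A promoter peak, counted from 1000 bp upstream to 100 bp downstream of an annotated start, was called for 6 of the 8 members in the WT library, for 6 in the 1 week library and for all 8 in the 5 week library. Over all protein-coding genes the shares were 59.0%, 55.9% and 65.6%. Of the 2 members without a WT call, Gcg had one at 1 week and both Gcg and Loxl4 had one at 5 weeks, while 13.3% and 18.9% of all genes without a WT call gained one. Such gains were 12.5% and 16.6% for CpG-poor promoters, the class of Gcg. They were 24.8% and 48.5% for CpG-rich ones, the class of Loxl4. Of the 6 members called in WT, Irx1 had no call at 1 week and none was without one at 5 weeks, where 14.5% and 1.89% of all genes with a WT call had lost it. The 6 members called in WT lie in the 3 groups of genes with the least GC in the surrounding 1 Mb, of 5 groups of equal size, where 2.12%, 5.39% and 8.80% of WT calls were lost at 1 week, the group of Irx1 being the middle of these. The strength of the calls moved in different directions among members. Of 5 members called in both WT and 1 week, Pou3f4 and Gc had rank numbers lower than in WT by a factor of 2 or more, and of 6 called in both WT and 5 weeks only Gc did. Over all genes 9.86% and 7.23% did so, and the typical promoter instead stood lower in its list than in WT, with a median rank number 1.90 times the WT value at 1 week and 1.44 times at 5 weeks. Gcg, Pou3f4 and Gc lie in the fifth of genes with the least GC in the surrounding 1 Mb, where these background shares were higher at 1 week. In that group 21.0% of genes without a WT call gained one at 1 week and 18.1% at 5 weeks, and 22.6% and 8.17% of genes had a rank number lower by such a factor.

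**Figure D1:**
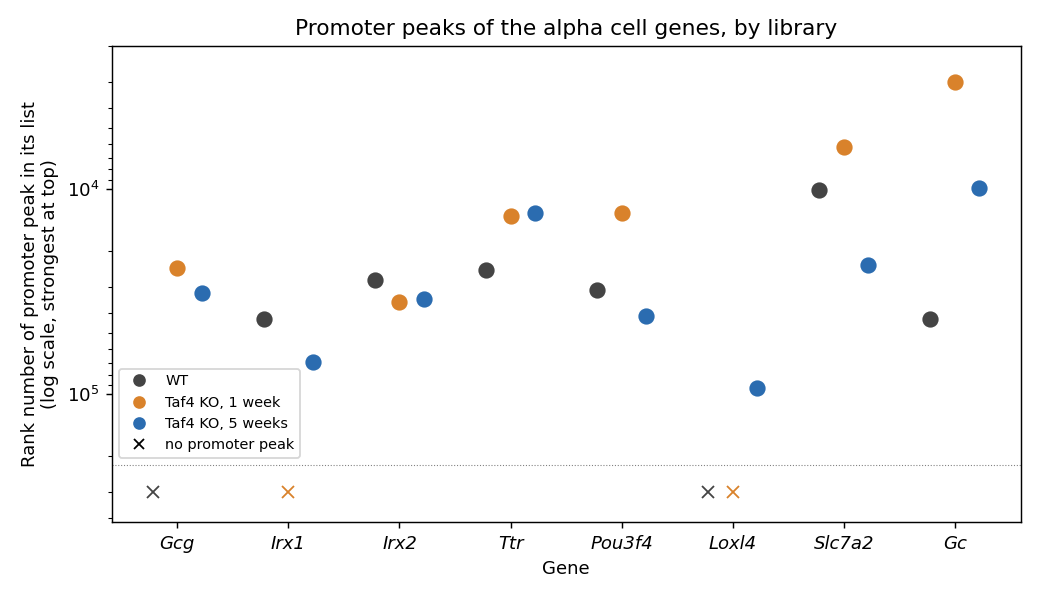
Rank number of each gene's strongest promoter peak within its list (log scale, strongest at the top), 1 point per library, with crosses at the foot for libraries without a promoter peak. Gcg has points in both Taf4 KO libraries and a cross for WT, and Gc lies at 42836 in WT, 2995 at 1 week and 9873 at 5 weeks.

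Gcg encodes preproglucagon, the precursor of glucagon (ENSMUSG00000000394, chromosome 2 from 62312587 to 62321707, minus strand). No peak reached its promoter window in WT. At 1 week a peak of 407 bp from 62321551 to 62321957 covered the start and all of the promoter sequence printed above, with a fold of 2.90, a -log10 q of 4.96 and rank number 24181. At 5 weeks 1 peak of 1831 bp ran from 62321576 to 62323406, over the start and 1699 bp upstream, with a fold of 3.11, a -log10 q of 7.14 and rank number 31980. The promoter was thus called in both Taf4 KO libraries and not in WT, and this was also so when peaks under a -log10 q of 3 were dropped, in lists cut to equal number and after scaling to the WT background. In lists of equal number, 4.77% of all genes without a WT call had one at 1 week and 6.64% at 5 weeks. At a threshold of 5 on that scale only the 5 week call was left.

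WT islets did have accessible chromatin next to the Gcg promoter. A WT peak of 372 bp from 62323025 to 62323396, centred 1503 bp upstream of the start, had a fold of 4.52, a -log10 q of 7.49 and rank number 16663. At 1 week a separate peak of 456 bp covered the same element, with a fold of 4.86, a -log10 q of 16.5 and rank number 2115, which placed it at percentile 98.6 of its list. At 5 weeks the single wide promoter peak spanned both the element and the start, so that its averaged values describe neither alone. With a promoter window of 2500 bp upstream the WT element counts as a Gcg promoter peak, and the call then no longer differs between libraries.

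The other peaks of the Gcg locus lay downstream, within the gene, in the neighbouring Fap and, at 1 week, 12.5 kb upstream at rank number 78478. The downstream region printed above, 42.4 kb from the start, was found in all lists, with -log10 q of 4.42, 10.8 and 11.3 in WT and the 1 and 5 week libraries. Its rank numbers were 26646, 6844 and 19171, so it stood nearer the top of both Taf4 KO lists than of the WT list. A peak in an intron of Fap, which encodes fibroblast activation protein and is itself expressed in alpha cells, lay 18.9 kb upstream and was called in both Taf4 KO lists without WT, at rank numbers 23960 and 59487. The Fap promoter was in no list. Within Gcg itself, peaks around 62314561 to 62315603 were called at 1 week (rank number 54365, over a peak 2015 bp wide) and at 5 weeks (rank number 124226). The total came to 2, 7 and 7 peaks in the 3 libraries.

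**Figure D2:**
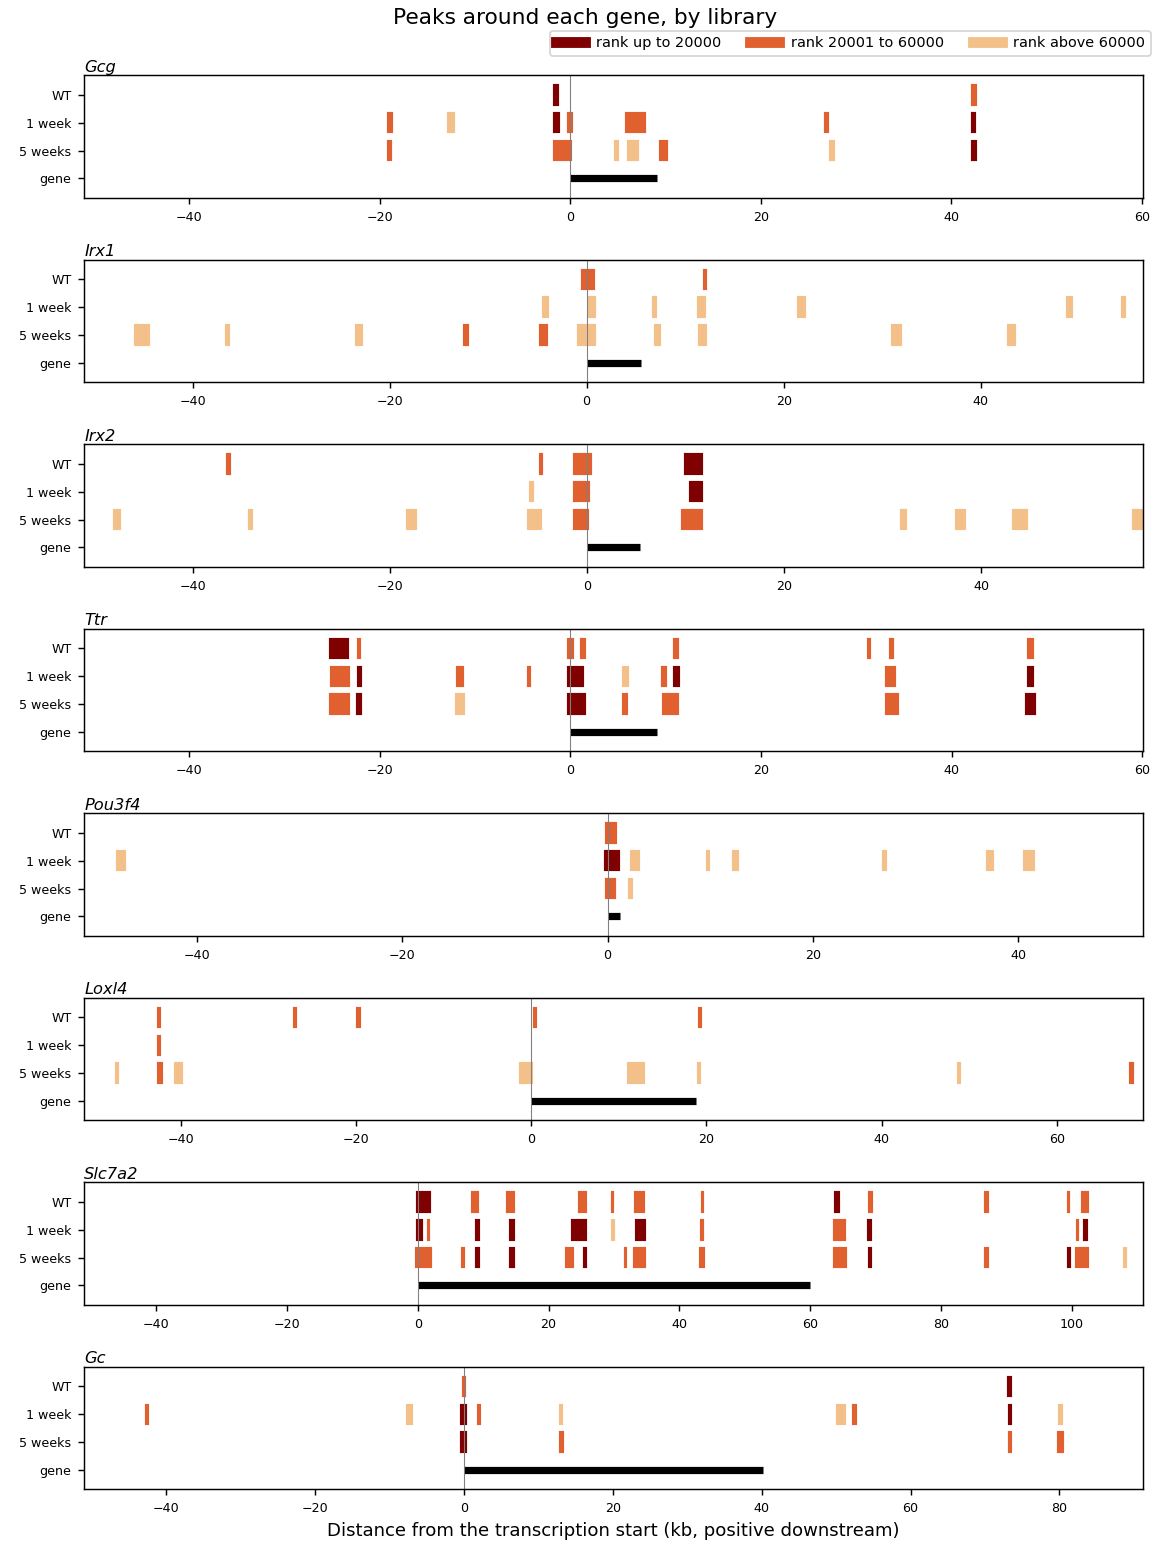
Peaks of each library around the 8 genes against the distance from the transcription start (kb, positive downstream, drawn on the gene's strand), with the gene body in black. Colours give the rank number in the list (dark up to 20000, middle up to 60000, pale above), and an outline of fixed width makes the narrowest peaks look slightly wider. Around Gcg the WT row holds an upstream and a far downstream peak, and the Taf4 KO rows add the start. The pale peaks lie only in the longer Taf4 KO lists, chiefly around Irx1, Irx2, Pou3f4 and Loxl4.

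Irx1 and Irx2 encode Iroquois homeodomain transcription factors and lie on chromosome 13 in a cluster that also holds Irx4. Irx1 (ENSMUSG00000060969, 72095680 to 72101171, minus strand) had a WT promoter peak of 1270 bp with a fold of 2.66, a -log10 q of 2.30 and rank number 42668. At 1 week no peak reached the promoter window, although an intronic peak of 603 bp from 72100312 to 72100914 overlapped the downstream end of the WT peak, at a -log10 q of 1.41. At 5 weeks a peak of 1716 bp covered the start with a fold of 2.08, a -log10 q of 2.61 and rank number 69472. All of these were weak calls, and none of them was left when peaks under a -log10 q of 3 were dropped. In lists of equal number the WT call alone was left. With the window widened to 2500 bp upstream and 500 bp downstream, the 1 week intronic peak counts too and Irx1 was called in all lists.

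Irx2 (ENSMUSG00000001504, 72766245 to 72771644, plus strand) moved less by rank number than the other members called in all lists. Its promoter peak measured 1691 bp in WT, 1546 bp at 1 week and 1488 bp at 5 weeks, with folds of 2.6, 2.59 and 2.58. The -log10 q was 4.24, 3.55 and 6.64, and the rank numbers were 27531, 35613 and 34163. These are 1.29 and 1.24 times the WT rank number, below the medians of all genes. The strongest distal region of the locus, 10.7 kb downstream of the start, was also in all lists, at -log10 q of 7.08, 7.43 and 7.47 and rank numbers 17616, 13934 and 30632. A WT peak 36.3 kb upstream, at a -log10 q of 2.63, was in neither Taf4 KO list.

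Pou3f4, a POU homeodomain factor also called Brn4 that appears early in alpha cell development, is a gene of 1 exon on chromosome X (ENSMUSG00000056854, 108009729 to 108010910, plus strand). Its promoter peak measured 993 bp in WT, 1327 bp at 1 week and 873 bp at 5 weeks. The -log10 q was 3.61, 7.73 and 5.18 and the rank numbers were 31116, 13109 and 41439, or 0.421 and 1.33 times WT. The fold moved otherwise, from 3.41 in WT to 3.21 and 2.80. The rank therefore improved at 1 week alone, together with a wider peak and a local background of 11.1 reads (10.4 at 5 weeks) against 3.74 in WT. By fold the promoter stood at percentile 58.5, 85.0 and 73.4.

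Gc, the vitamin D binding protein of plasma, showed the largest shift of the 8 promoters (ENSMUSG00000035540, chromosome 5 from 89846549 to 89886790, minus strand). Its peak over the start widened from 228 bp in WT to 708 bp at 1 week and 726 bp at 5 weeks. The fold was 2.93, 4.44 and 4.41, and the -log10 q was 2.29, 14.8 and 16.5. The rank numbers of 42836, 2995 and 9873 were 0.0699 and 0.230 times WT. Among all genes called in both libraries, 55 of 11287 had a rank ratio as low at 1 week and 208 of 12948 at 5 weeks. The fold over background, at 1.52 and 1.51 times WT, was matched or exceeded by 39 and 28 of these genes, and the median gene stood at 0.813 and 0.903. The WT peak was narrow and weak, its pileup standing at 3.45 times a background of 3.74 reads. The promoter peak was called in all lists of equal number, and when peaks under a -log10 q of 3 were dropped it was called in both Taf4 KO lists and not in WT.

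By rank number, the strongest distal region of the Gc locus stood higher than in WT at 1 week, as the promoter did, but lower at 5 weeks. It lay 73.3 kb downstream of the start, beyond the end of the gene, with -log10 q of 7.0, 7.83 and 6.19 and rank numbers 17805, 12826 and 36128. Its fold fell across the libraries from 4.45 to 3.87 and 3.06, while that of the promoter was higher in both Taf4 KO libraries. A region 80.1 kb downstream was called at 1 week and 5 weeks without WT, at rank numbers 67203 and 44895.

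Ttr encodes transthyretin, the carrier of thyroxine and of retinol-binding protein (ENSMUSG00000061808, chromosome 18 from 20823751 to 20832825, plus strand). Its promoter peak grew from 548 bp in WT to 1549 bp at 1 week and 1756 bp at 5 weeks, with folds of 3.15, 3.35 and 3.44. The -log10 q was 4.86, 7.59 and 14.4, and the rank numbers were 24705, 13488 and 12997, or 0.546 and 0.526 times WT. Of all genes, 11.2% and 7.95% had ratios as low. In the Taf4 KO lists the peak reached 1307 and 1536 bp into the gene, where WT had a second, separate peak at 20824878 to 20825291. Both KO libraries thus joined parts that WT listed apart.

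Distal peaks around Ttr were among the strongest of all the loci. A region 48.3 kb downstream, in an intron of the neighbouring galactosyltransferase gene B4galt6, had -log10 q of 5.90, 14.4 and 16.2 and rank numbers 20848, 3288 and 10367. A peak 22.2 kb upstream had rank numbers 33279, 14488 and 9622. A wider region 24.2 kb upstream went the other way, at rank numbers 17141, 25636 and 34590 and folds of 3.49, 3.0 and 2.80. Only 1 WT peak of the locus, within B4galt6 at a -log10 q of 1.55, was missing from both Taf4 KO lists.

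Slc7a2 encodes a transporter of arginine and other cationic amino acids, which stimulate glucagon secretion (ENSMUSG00000031596, chromosome 8 from 41947750 to 42007662, plus strand). It had the strongest WT promoter peak of the members, with -log10 q of 11.2, 11.3 and 9.62 in WT and the 1 and 5 week libraries. The rank numbers were 10123, 6240 and 23481, 0.616 and 2.32 times WT, and the folds were 4.21, 4.52 and 3.46. The peak measured 1979 bp in WT and 2153 bp at 5 weeks, but 705 bp at 1 week, where a separate peak of 249 bp covered part of the remainder. As the values are averages over each peak, the narrower 1 week peak leaves out the weaker flank.

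Of 6 intronic WT peaks of Slc7a2, 4 stood nearer the top of both Taf4 KO lists. A region 14.2 kb into the gene had -log10 q of 4.51, 7.47 and 21.9 and rank numbers 26221, 13825 and 4626. Another, whose WT peak lay at 41956073 to 41956968, had rank numbers 43288, 13799 and 12191. A region 24.2 kb into the gene had rank numbers 20571, 11637 and 13036, and one at 43.5 kb had 44046, 28069 and 21030. The others were a region 33.9 kb into the gene, at rank numbers 24528, 18496 and 33761, and one at 29.9 kb, at 59602 in WT and 89154 at 1 week and absent at 5 weeks. At 5 weeks the 4 regions stood above the gene's own promoter peak, at rank number 23481, whereas in WT all stood below it. The locus also holds the promoter of Pdgfrl, a neighbouring gene, with rank numbers 13688, 50928 and 26430.

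Loxl4, a lysyl oxidase that crosslinks collagen and elastin, had a promoter peak at 5 weeks only (ENSMUSG00000025185, chromosome 19 from 42668472 to 42687303, minus strand). It was 1454 bp wide, with a fold of 2.11, a -log10 q of 1.94 and rank number 93246, and was not called in lists of equal number, after scaling or above a -log10 q of 3. WT had a weak intronic peak centred 454 bp downstream of the start, at a -log10 q of 1.56, which counts as a promoter peak when the window is widened to 2500 bp upstream and 500 bp downstream, so that the call is then shared by WT and 5 weeks. The only region of the locus found in all lists lay 42.3 kb upstream, with rank numbers 38129, 36877 and 36992, nearly the same in the 3 libraries.

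Together the loci held 36 WT peaks, and 57 and 64 peaks in the 1 and 5 week libraries. By gene, the counts in WT, 1 week and 5 weeks were 2, 7 and 7 at Gcg, 2, 7 and 10 at Irx1, and 4, 3 and 10 at Irx2. At Pou3f4 they were 1, 8 and 2, at Gc 2, 9 and 4, and at Ttr 8, 10 and 8. Slc7a2 had 12, 12 and 15, and Loxl4 had 5, 1 and 8. The count reached at least 2 times WT at 4 of 8 loci at 1 week and at 5 of 8 at 5 weeks, against 18.7% and 21.7% of the loci of all genes with a WT peak. These shares depended on base composition. In the fifth of lowest GC, with Gcg, Pou3f4 and Gc, the median locus went from 1 peak in WT to 9 and 6, and 67.5% and 52.0% of loci reached 2 times WT. In the next, with Irx1, Ttr and Slc7a2, 32.0% and 32.9% did. The added peaks at the Gcg, Pou3f4 and Gc loci are thus what most loci of such composition showed.

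In lists cut to equal number the sum hardly differed, at 36, 35 and 36 peaks. Gcg still had more, with 2, 6 and 4, and so did Gc, with 2, 5 and 4. Pou3f4 had 1 in each, Irx1 had 2, 0 and 2, and Loxl4 had 5, 1 and 2. In the fifth of lowest GC the median locus then held 1, 3 and 1 peaks, and 37.7% and 17.5% of loci reached 2 times WT.

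**Figure D3:**
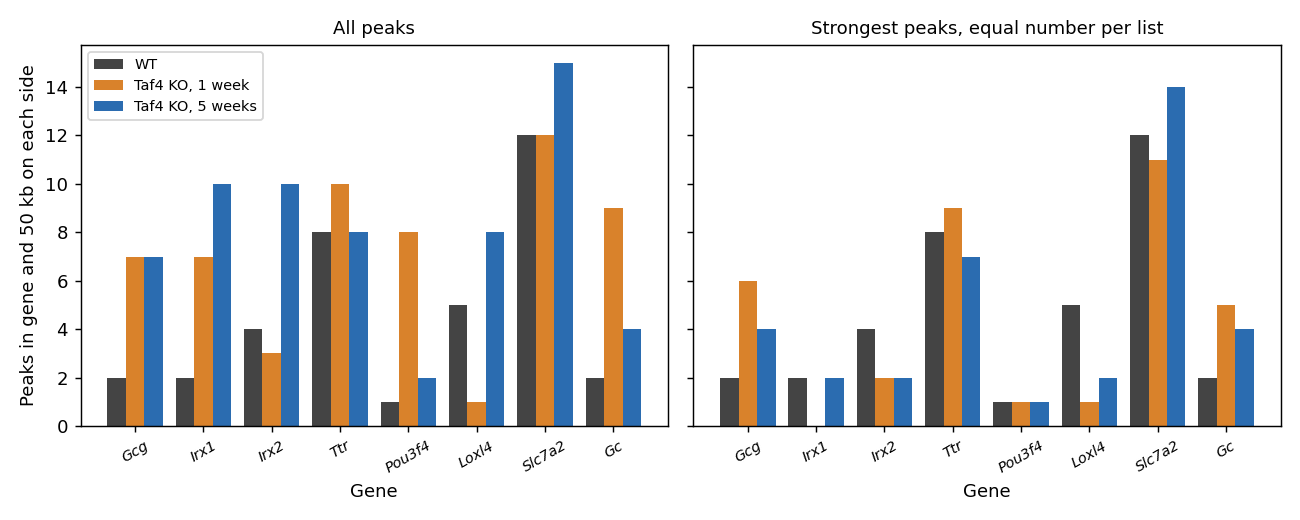
Number of peaks overlapping each gene and the 50 kb on each side, by library, for all peaks (left) and for the 60898 strongest peaks of each list (right). In all lists the sum is 36, 57 and 64 peaks, and in lists of equal number it is 36, 35 and 36, with Gcg and Gc above WT at both times.

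When overlapping peaks were merged, the loci held 86 regions, of which 26 were in all 3 lists, 5 in WT alone, 9 in both Taf4 KO lists without WT, 17 at 1 week alone and 25 at 5 weeks alone. Only 4 were shared by WT and a single Taf4 KO list. Of the 36 WT peaks, 27 were overlapped at 1 week, or 75% (Wilson 95% interval 58.9 to 86.2), and 30 at 5 weeks, or 83.3% (68.1 to 92.1). Of all WT peaks 61.9% and 79.5% were, values within those intervals, which cover the counting of peaks only. Slc7a2 had 9 and Ttr 6 of the 26 regions present in all lists, and 3 of the 5 regions of WT alone were at Loxl4.

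Distal WT peaks of these loci that were found again tended to stand higher in the 1 week list than in WT. At 5 weeks those standing higher lay chiefly at Ttr and Slc7a2. Outside any promoter there were 29 WT peaks, of which 19 were overlapped by a distal peak at 1 week and 21 at 5 weeks. The rank number was lower than in WT by a factor of 2 or more for 8 of the 19 and for 5 of the 21, against 23.8% and 12.5% of all such WT peaks. The median ratio was 0.566 at 1 week and 0.811 at 5 weeks, against 0.938 and 1.08 over the genome. All 8 at 1 week lay at Gcg, Ttr or Slc7a2, and all 5 at 5 weeks at Ttr or Slc7a2. Some of them lay in introns of neighbouring genes. At 1 week these were peaks in Pdgfrl, 69.2 and 102 kb from the Slc7a2 start, and at both times the peak in B4galt6 near Ttr. Base composition moved with this measure at 1 week. For distal peaks nearest to genes in the fifth of lowest GC and in the next, 35.2% and 27.3% had a rank number lower by that factor at 1 week, and 14.1% and 12.5% at 5 weeks. The median ratios there were 0.709 and 0.827 at 1 week, and 1.09 and 1.10 at 5 weeks. Outside Ttr and Slc7a2, the 5 week ratios below 1 were 0.719 at Gcg and 0.97 at Loxl4. Those above 1 were 2.66 at Irx1, 2.703 and 1.74 at Irx2, 2.69 at Loxl4 and 2.03 at Gc. Peaks of 1 locus are not independent of each other, and the counts are small.

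**Figure D4:**
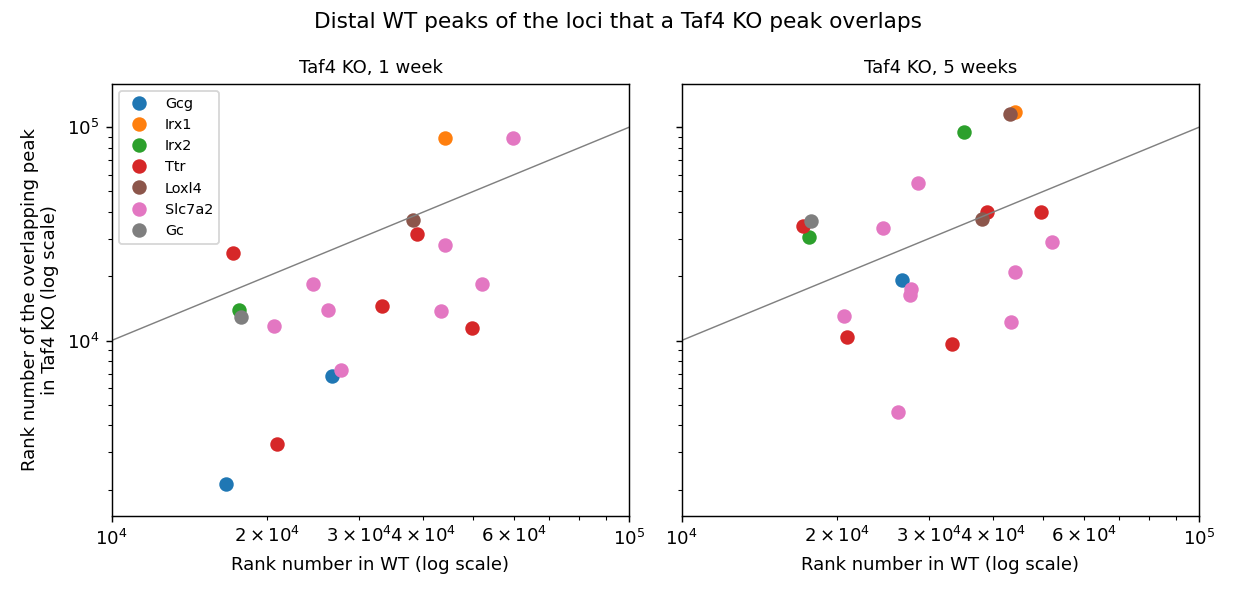
Rank number of distal WT peaks of the loci (horizontal, log scale) against that of the strongest overlapping distal peak at 1 week (left) and 5 weeks (right), 1 point per WT peak, with the line of equal rank. Points below the line stood higher in the Taf4 KO list: 16 of 19 at 1 week and 12 of 21 at 5 weeks. Of all such WT peaks in the genome, 53.0% and 44.8% did.

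Of 10 other genes of the alpha cell programme, 8 had a promoter peak in the WT list, and 6 and 7 had one in the Taf4 KO lists. The shares of all genes were 59.0%, 55.9% and 65.6%. Pax6, Isl1 and Neurod1, transcription factors of islet endocrine cells that were chosen after their values were seen, were called in every library. The rank numbers were 2994, 5748 and 2877 for Pax6, 2832, 11678 and 10233 for Isl1, and 21066, 29680 and 15849 for Neurod1. Foxa2, Pcsk2 and Smarca1 were also called in every library and, as Isl1 did, stood lower in both Taf4 KO lists than in WT. Their rank numbers were 10782, 40867 and 33113 for Foxa2, 11643, 31533 and 19060 for Pcsk2, and 29622, 40561 and 89322 for Smarca1. The median promoter of all genes also stood lower, at 1.90 and 1.44 times its WT rank number. Foxa1 was called in WT only, at a -log10 q of 1.37, and Dpp4, next to Fap and Gcg on chromosome 2, in WT and at 5 weeks, at 10.4 and 14.5. Fap and Slc38a5 were in no list. The lower counts thus rest on Dpp4 and on the weak WT call of Foxa1, so that 2 of 8 WT calls were lost at 1 week and 1 of 8 at 5 weeks, where 14.5% and 1.89% of all WT calls were. At equal list length 8, 6 and 6 were called, against 59.0%, 48.8% and 59.0% of all genes.

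Of 21 relatives of the members, promoter peaks were found for 7 in WT, and for 9 and then 11 in the Taf4 KO lists, where all-gene shares were 59.0%, 55.9% and 65.6%. At equal list length there were 7, 5 and 8, and 59.0%, 48.8% and 59.0% of all genes were called. Of the 14 relatives without a WT call, 3 gained one at 1 week and 5 at 5 weeks, where all-gene gains were 13.3% and 18.9%. Among Iroquois genes, Irx3 and Irx6 were called in both Taf4 KO lists without WT, at -log10 q of 2.53 and 2.51 for Irx3 and 1.33 and 4.08 for Irx6, and Irx4 and Irx5 in none. Pou3f3 was also called in both without WT, at 1.49 and 2.24. The lysyl oxidases Lox and Loxl1 were called at 5 weeks only, as Loxl4 was, at 2.82 and 4.72. The transporter Slc7a3 was called in WT only, at 3.03. Of the hormone genes related to Gcg, Sct was in all lists and Gip, Vip, Adcyap1 and Ghrh in none. The albumin family genes Alb, Afp and Afm, which lie near Gc on chromosome 5, were in none either.

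Calls of markers of other cells differed between the full lists, whose all-gene shares were 59.0%, 55.9% and 65.6%. Promoter peaks were called for 10, 9 and 9 of 10 beta cell genes, 2, 4 and 5 of 5 delta cell genes, 1, 3 and 4 of 5 endothelial genes, and 0, 0 and 3 of 4 mesenchymal genes. Acinar genes had 1, 1 and 2 of 6, duct genes 2 in each list of 4, and immune genes 0, 1 and 0 of 3. Most of the added calls were weak. In lists of equal number, where 59.0%, 48.8% and 59.0% of all genes were called, beta cell genes had 10, 9 and 9, delta cell genes 2 in each list, endothelial genes 1, 1 and 0, and mesenchymal genes 0, 0 and 2, with acinar genes at 1, 0 and 1, duct genes at 2, 1 and 1 and immune genes at 0. Ins1 and Ins2, which encode insulin, were in all lists. Slc2a2, the beta cell glucose transporter, was called in WT only, weakly, at a -log10 q of 2.15 and rank number 44719. The other beta cell genes were in all lists, and their rank numbers moved both ways. Iapp (18322, 5148 and 5975) and Ucn3 (42649, 10605 and 33287) stood higher in both Taf4 KO lists than in WT. Ins2 (22230, 42973 and 26666) and Slc30a8 (6777, 36623 and 9490) stood lower in both. Ins1, Mafa, Pdx1, Nkx6-1 and G6pc2 stood higher in 1 Taf4 KO list and lower in the other. Sst, the delta cell hormone, was called in both Taf4 KO lists without WT, at -log10 q of 1.41 and 1.33 and rank numbers 127110 and 135482, so that, unlike the Gcg calls, these were absent in lists of equal number. Pecam1, Col1a1 and Cd68 were in no list. Gc and Ttr are also made by hepatocytes, whose defining marker Alb was in no list. Of 5 hepatocyte genes, Ttr and Gc included, 2, 2 and 4 were called, with Apoa1 and Serpina1a at 5 weeks only, at -log10 q of 2.73 and 1.32, and in lists of equal number 2 were called in each. The part of cell composition in the values of the members was not tested.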

How the data were processed

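ATAC-seq peak lists of 3 mouse islet libraries (1 WT, 1 at 1 week and 1 at 5 weeks after Taf4 inactivation) were analysed, grouped by the genotype and time labels. The authors mapped reads to mm9 with Bowtie 1.0.0, keeping unique placements, and called broad peaks per library with MACS2 2.1.1, after bcl2fastq 2.17.1.14. A control library, duplicate removal and a shift to the insertion site were not given in the sources used here. The deposited lists hold the fold over local background (a ratio), -log10 p and -log10 q of each peak, averaged over it. The score the authors' caller also wrote was not used. The lists hold no read totals.

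Peaks on chromosomes 1 to 19, X and Y were kept, leaving out 2 mitochondrial peaks per list. Genes came from GENCODE on NCBIM37 (the build of mm9), and starts from protein-coding transcripts. Overlap was counted from 1 bp, and distal peaks were placed by midpoint. The background was recovered from fold and p, and its level in a list is the first percentile. This and the overlap counting were tested on simulated data. GC was taken over 1 Mb around the start, in 5 groups of equal size. Python 3.11.15, pandas 2.3.3 and scipy 1.17.1 were used.

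The members and lists were chosen with earlier results of these data known. All members were named, and, per locus, up to 2 distal regions in all lists, the strongest in WT alone and the strongest in both KO lists; some of these, and 2 of the distal sequences the rule called for, are not printed. Of 4 immune markers 3 matched the annotation. Of the other alpha cell genes listed, 2 are not reported here. Alternatives were a -log10 q of at least 3 or 5, lists of equal number, scaling to the WT background, other windows and flanks (20 and 100 kb), and a reciprocal overlap of 50%. The comparisons by GC, of distal ranks, and of peak counts by gene and of calls in other gene lists at equal number were added after seeing the data.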

Additional observations from a re-analysis of the deposited data

Results flagged for a closer look

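At 4 points the 1 week and 5 week libraries differed from WT in opposite directions; with 1 library each, none of these differences was tested. The Irx2 locus had 1 peak fewer than WT at 1 week (a difference of -1) and 6 more at 5 weeks. The Loxl4 locus had 4 fewer at 1 week (-4) and 3 more at 5 weeks. The rank number of the Pou3f4 promoter peak was 0.421 times WT at 1 week and 1.33 times at 5 weeks, and that of Slc7a2 was 0.616 and 2.32 times. In lists of equal number the Irx2 locus held 4, 2 and 2 peaks and the Loxl4 locus 5, 1 and 2, so that both counts were then below WT at both times.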

How the results depend on the processing

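Taken library by library, promoter calls among the 8 genes stayed within 1.5 times the reported count in 17 of 18 alternatives. The exception was 1 gene called in WT when peaks under a -log10 q of 5 were dropped. With only 8 genes this range is wide, and the difference between libraries did depend on the setting. The reported 6, 6 and 8 (WT, 1 week, 5 weeks) became 6 in each library with equal list length and with scaling. Removing peaks below 3 gave 4, 6 and 6, and removing those below 5 gave 1, 4 and 6. The wider window gave 8, 7 and 8, and counting only peaks over the start left 6, 6 and 8. Peaks in the loci depended on the settings. Dropping peaks under a -log10 q of 3 left 19, 28 and 36 in WT and the 1 and 5 week libraries (15, 22 and 30 of them distal), and dropping those under 5 left 8, 17 and 24 (7, 13 and 18 distal). In lists of equal number 1 week had 35 (29 distal) and 5 weeks 36 (30 distal), and after scaling to the WT background 35 (29) and 31 (25), against 36 (30) in WT. A flank of 20 kb gave 23 (17 distal) in WT and 37 (29) at 5 weeks, and 100 kb gave 96 (90) and 106 (98) at 1 and 5 weeks and 48 distal peaks in WT. With a reciprocal overlap of 50% the shares of WT peaks found again were 50% at 1 week and 47.2% at 5 weeks, and the 5 week share was 94.7% for peaks past 3 and 100% for peaks past 5 in -log10 q. The higher peak number in the Taf4 KO libraries was thus seen neither in lists cut to 60898 peaks nor with scaling. At a -log10 q of at least 5, however, the WT and 1 week lists were nearly equal in length. They held 24100 and 23953 peaks, of which the loci held 8 and 17, so there the 1 week number remained higher. The 2 lists differed in make-up, as promoters of 48.6% of all genes were called in WT and 33.5% at 1 week. Loci of all genes were not counted at this threshold, so whether the higher number is particular to these loci was not tested. Over all settings, 69 of 103 promoter percentiles moved by more than 1 percentile, 1 of them by the wider window. No paired analysis was possible because each group has 1 library. The lists do not give reads per peak, which limits weak calls such as those of Irx1, Loxl4 and the WT peak of Gc.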
